A study of Homo sapiens with 10 samples.

Results

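Core primed pluripotency genes are the transcription factors, RNA-binding proteins and chromatin proteins that human embryonic stem cells hold at high levels until they differentiate. The 9 described here were POU5F1, NANOG, LIN28A, LIN28B, SALL4, L1TD1, DPPA4, ZFP42 and PRDM14. They were chosen by symbol from the authors' deposited table and joined by gene identifier to the count table, which lists 32152 genes. All 9 were found once, and all 9 passed the filter on low counts that left 19163 genes for testing. The libraries were made from polyA RNA of the human embryonic stem cell line WAe009-A, also called H9. The tested libraries were 5 of KCNH2-/- cells grown in mTeSR plus (KO), and 5 libraries of unedited cells grown in TeSR-E8 (WT) served as the comparison. Both groups grew on Matrigel for at least 4 days to about 80% confluency, and the RNA was read with 150 paired-end cycles. KCNH2 encodes hERG1, a voltage-gated potassium channel best known from the heart, and the series asks which transcripts depend on it while cells are still pluripotent. The labels call the edited cells a knockout in the sample titles and growth protocol but a knockdown in the genotype field. The titles of the KO libraries share 1 prefix whose meaning is not given, so the number of clones behind them is not known. Medium and genotype went together in every library and cannot be told apart. The labels do not tie replicates to separate cultures. The p-values below therefore measure the spread between these libraries only, and that spread may be technical.

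In human pluripotent cells POU5F1 (OCT4) binds DNA together with SOX2 at composite sites, and with NANOG it occupies the control regions of many genes of the undifferentiated state, its own included. SALL4 and PRDM14 are zinc finger proteins of the same network and recruit chromatin repressors, while LIN28A and LIN28B block the maturation of let-7, a microRNA family that accumulates as cells differentiate. DPPA4 acts on chromatin as a partner of DPPA2, L1TD1 is an RNA-binding protein found in particles with LIN28A, and ZFP42 (REX1) is a zinc finger protein used as a marker of the undifferentiated state. In bulk RNA, a smaller share of cells with a transcript and less of it per cell cannot be told apart.

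Library totals ran from 29788732 to 40587206 counts in KO and from 28615751 to 47319933 in WT. Levels are given in CPM, counts per 1e6 counts of the TMM-scaled library total. KCNH2 itself was counted in every library, at 11.2, 13.2, 13.2, 12.2 and 11.2 CPM in KO 1 to KO 5 against 14.9, 16.1, 14.7, 16.4 and 15.4 CPM in WT 1 to WT 5, and its log2 fold change was -0.35 (SE 0.06, edgeR quasi-likelihood adjusted p = 6.48e-04). The groups did not overlap. An edited gene can still give a counted transcript, so these counts say nothing of the hERG1 protein. On log2 CPM the first principal component, with 44.8% of the variance, separated the groups. On the second, with 28.3%, KO 3, WT 3 and WT 2 stood lowest, and the effect of leaving them out is given where it matters. Of 7 pluripotent cell markers all were tested. The 4 that were higher in KO were POU5F1, NANOG, LIN28A and L1TD1, which are among the 9, and DNMT3B, TDGF1 and SOX2 did not pass. Beside these, 21.9% of all tested genes were higher in KO, and 34.0% of those of at least 20 CPM, the range that holds all 7. Since the 4 are themselves among the 9, they give no separate reading of cell state. Markers of other lineages were mostly scarce, and those too low to test were 5 of 6 for neuroectoderm, 4 of 6 for the primitive streak, 4 of 5 for trophoblast and amnion, 3 of 5 for definitive endoderm and 2 of 4 for mesenchyme, with none at 0 in every library. The summed level of the endoderm list ran from 1.68 to 1.88 CPM in KO and from 3.82 to 6.75 CPM in WT, mainly through FOXA2 (0.4 ± 0.15 CPM in KO and 3.73 ± 1.04 CPM in WT, SD, n = 5 each). The trophoblast and amnion list summed to between 4.41 and 8.01 CPM in KO and between 8.51 and 9.83 CPM in WT, and the mesenchyme list, mainly COL1A1, to between 65.4 and 80.5 CPM in KO and between 102 and 105 CPM in WT. In the same list PDGFRA did not pass and averaged 0.776 ± 0.0658 CPM in KO and 0.675 ± 0.219 CPM in WT, and TWIST1, named after its values were seen and too low to test, had 7, 13, 36, 21 and 19 counts in KO 1 to KO 5 against 4, 2, 10, 6 and 3 in WT 1 to WT 5. The primitive streak and neuroectoderm lists overlapped between groups. Their part in the results below was not tested.

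Of the 9 genes, 6 rose in KO (POU5F1, NANOG, LIN28A, SALL4, DPPA4 and L1TD1), 1 fell (LIN28B), and ZFP42 and PRDM14 did not pass the test (edgeR quasi-likelihood, Benjamini-Hochberg adjusted p under 0.05 over all 19163 genes). Across all tested genes, 46.0% passed, 21.9% upwards and 24.1% downwards. Among the 8270 tested genes of at least 20 CPM, the range that holds all 9, 34.0% passed upwards and 25.5% downwards. The 9 genes had a median log2 fold change of 0.12, against 0.002 over all tested genes. The sizes were small. The median absolute log2 fold change of the 9 was 0.116, against 0.199 over all tested genes and 0.299 over those that passed. When the test was set against a log2 fold change of 0.25 (edgeR glmTreat), 0 of the 9 passed, against 13.5% of all genes. Without KO 3, WT 2 and WT 3 together, 5 rose and 0 fell, since L1TD1 (adjusted p = 0.207) and LIN28B (0.163) no longer passed. In 4 of the 9 (POU5F1, NANOG, SALL4 and DPPA4) no KO library overlapped a WT library, as was the case for 34.0% of all tested genes.

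**Figure D1:**
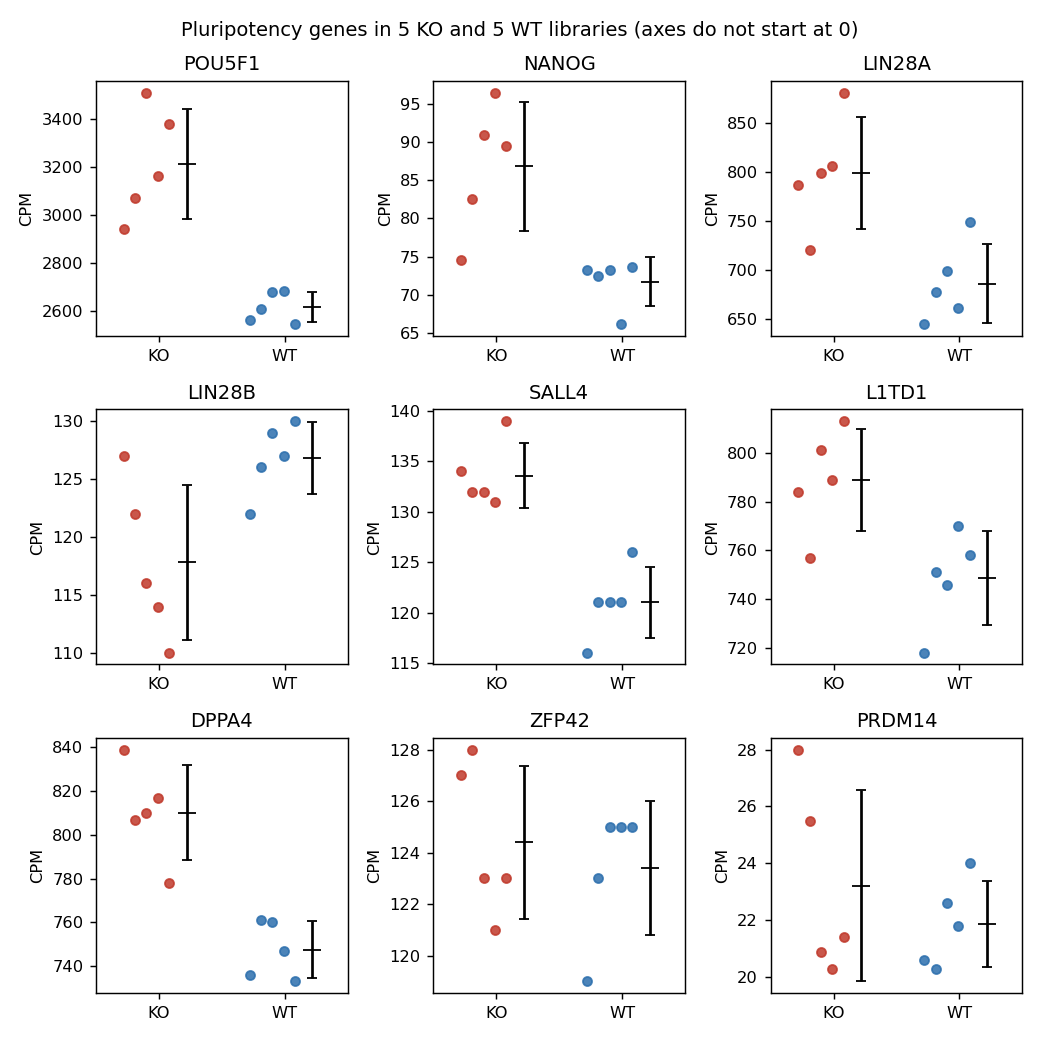
Level of each of the 9 genes in CPM in the 5 KO libraries (red) and the 5 WT libraries (blue), with replicates 1 to 5 from left to right in each group and the mean ± SD beside them; the axes do not start at 0. POU5F1, NANOG, SALL4 and DPPA4 do not overlap between groups, LIN28B is lower in KO on average, and ZFP42 and PRDM14 overlap.

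POU5F1 was the most abundant of the 9. It stood at 2944, 3073, 3510, 3162 and 3379 CPM in KO 1 to KO 5, against 2565, 2611, 2679, 2686 and 2545 CPM in WT 1 to WT 5. Every KO library was above every WT library, with KO 3 highest and KO 1 lowest among the KO libraries. The means were 3214 ± 229 CPM in KO and 2617 ± 64 CPM in WT (SD, n = 5 each), a log2 fold change of 0.30 (SE 0.04, 95% interval 0.20 to 0.39, edgeR adjusted p = 2.18e-04), or 22.8% higher in KO. POU5F1 lies on chromosome 6 at 31164337 to 31180731, minus strand (GRCh38), and TCF19 overlaps it on the other strand; without a stated strand setting, reads of the shared stretch cannot be told apart. TCF19, named here for that overlap after its values were seen, averaged 27 ± 1.79 CPM in KO and 23.4 ± 1.35 CPM in WT and also rose (log2 fold change 0.20, edgeR adjusted p = 0.00845).

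NANOG, the homeobox factor, stood at 74.6, 82.6, 90.9, 96.5 and 89.5 CPM in KO 1 to KO 5, against 73.2, 72.5, 73.2, 66.1 and 73.6 CPM in WT 1 to WT 5. The groups did not overlap, but KO 1 lay close above the highest WT library. The means were 86.8 ± 8.43 CPM in KO and 71.7 ± 3.19 CPM in WT (SD, n = 5 each), with a log2 fold change of 0.28 (SE 0.06, 95% interval 0.14 to 0.41, edgeR adjusted p = 0.00303). SOX2, the DNA-binding partner of POU5F1, averaged 285 ± 30.1 CPM in KO and 287 ± 12.1 CPM in WT, with a log2 fold change of -0.01 (95% interval -0.15 to 0.13, edgeR adjusted p = 0.916).

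The NANOG promoter is shown because it is known to hold a composite site for POU5F1 and SOX2, and both NANOG and POU5F1 rose. The window runs from 250 bases before to 50 after the transcription start, at chr12:7789152-7789451 on the plus strand (RefSeq, GRCh38.p14). Capitals mark a match to the 7 bases ATGCAAA, a part of the octamer motif that is called the octamer here, and a SOX match (CATTGT). Both were searched on both strands and read on the minus strand, so that the printed strand shows their complements.
NANOG promoter: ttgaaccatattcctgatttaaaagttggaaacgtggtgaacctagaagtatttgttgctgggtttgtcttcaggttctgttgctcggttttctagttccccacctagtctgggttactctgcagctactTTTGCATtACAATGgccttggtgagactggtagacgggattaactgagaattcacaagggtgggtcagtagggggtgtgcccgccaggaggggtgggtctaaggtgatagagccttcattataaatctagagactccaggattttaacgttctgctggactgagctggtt
The octamer match lay at -120 to -114 and the SOX match at -112 to -107 from the start, with 1 base between them. Of 35116 promoters of the same length, 4.46% held the octamer, 10.8% the SOX match and 4 (0.0114%) held both in this order within 3 bases. Promoters were on hand for 5 of the 9 genes in 6 entries (NANOG, LIN28B with 2 starts, L1TD1, DPPA4 and ZFP42). Of the other 5 entries, 1 of LIN28B held a SOX match at -140 to -135 and none held the octamer. A match of letters is a description of the window and does not show binding.

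SALL4 stood at 134, 132, 132, 131 and 139 CPM in KO 1 to KO 5, against 116, 121, 121, 121 and 126 CPM in WT 1 to WT 5. The groups did not overlap, and both were narrow, with an SD of 3.21 CPM in KO and 3.58 CPM in WT. Its log2 fold change was 0.14 (SE 0.03, 95% interval 0.08 to 0.20, edgeR adjusted p = 0.00124), or 10.4% higher in KO.

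ZFP42 averaged 124 ± 3.01 CPM in KO and 123 ± 2.58 CPM in WT (SD, n = 5 each), and its libraries ran from 121 to 128 CPM in KO and from 119 to 125 CPM in WT. The groups overlapped over most of their range. The log2 fold change was 0.01 with a 95% interval of -0.04 to 0.07 (edgeR adjusted p = 0.67).

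PRDM14 was the least abundant of the 9, at 28.0, 25.5, 20.9, 20.3 and 21.4 CPM in KO 1 to KO 5, against 20.6, 20.3, 22.6, 21.8 and 24.0 CPM in WT 1 to WT 5. KO 1 and KO 2 were above every WT library and the other 3 KO libraries lay within or at the edge of the WT range. The log2 fold change was 0.08 with a wide 95% interval of -0.11 to 0.28 (edgeR adjusted p = 0.464), which reaches the 0.28 measured for NANOG. KO 1, which was highest for PRDM14 among the KO libraries, was lowest for NANOG and POU5F1.

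The paralogous let-7 blockers LIN28A and LIN28B differed in direction. LIN28A stood at 787, 721, 799, 806 and 881 CPM in KO 1 to KO 5, against 645, 678, 699, 662 and 749 CPM in WT 1 to WT 5. Only KO 2 fell inside the WT range, below WT 5. The means were 799 ± 56.8 CPM in KO and 687 ± 40.5 CPM in WT, with a log2 fold change of 0.22 (SE 0.05, 95% interval 0.10 to 0.33, edgeR adjusted p = 0.00502). LIN28B stood at 127, 122, 116, 114 and 110 CPM in KO 1 to KO 5, against 122, 126, 129, 127 and 130 CPM in WT 1 to WT 5. KO 3, KO 4 and KO 5 were below every WT library, and KO 1 and KO 2 were within the WT range. The log2 fold change was -0.11 (SE 0.04, 95% interval -0.19 to -0.02, edgeR adjusted p = 0.0394). This call was lost in 16 of 23 alternative fits, among them 7 of the 10 that left out 1 library (adjusted p up to 0.0954), while the sign held in all 23.

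Within a library, LIN28B counts per LIN28A count were 0.161, 0.169, 0.145, 0.141 and 0.125 in KO 1 to KO 5, against 0.189, 0.185, 0.185, 0.191 and 0.174 in WT 1 to WT 5. The groups did not overlap. The mean log2 ratio was lower in KO by a difference of -0.33 (exact two-sided permutation test, p = 0.00794, the smallest this design can give; adjusted p = 0.0159 over the 4 ratios tested). After correction for transcript length and GC, described below, the difference was -0.34. Without both replicate 3 libraries it was -0.32, still without overlap, and its exact permutation p of 0.0286, the smallest that 4 against 4 libraries can give, became 0.0571 after adjustment.

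The let-7 family is shown because it is what LIN28 proteins act on. All 9 mature family members of the RefSeq miRNA table carry the same seed (bases 2 to 8, in capitals), of which 4 are printed here.
hsa-let-7a-5p: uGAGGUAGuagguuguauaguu
hsa-let-7d-5p: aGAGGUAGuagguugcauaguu
hsa-let-7g-5p: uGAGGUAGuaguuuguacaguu
hsa-miR-98-5p: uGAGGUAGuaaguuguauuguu
LIN28 proteins are known to bind GGAG in the loop of let-7 precursors. These letters (in capitals below) were found between the mature arms in 9 of 12 family hairpins, counting to the hairpin's end for let-7f-2, whose second arm is not listed. The hairpin of let-7g holds them and those of let-7a-3, let-7b and miR-98 do not.
MIRLET7G hairpin: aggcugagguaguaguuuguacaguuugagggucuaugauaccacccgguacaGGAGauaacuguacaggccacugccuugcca
MIRLET7B hairpin: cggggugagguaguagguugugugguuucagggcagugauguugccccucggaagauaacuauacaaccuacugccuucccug
The MIRLET7G hairpin lies at chr3:52268278-52268361 on the minus strand and that of MIRLET7B at chr22:46113686-46113768 on the plus strand (GRCh38.p14). Mature let-7 was not measured in these polyA libraries.

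L1TD1, an RNA-binding protein derived from a LINE-1 open reading frame, stood at 784, 757, 801, 789 and 813 CPM in KO 1 to KO 5, against 718, 751, 746, 770 and 758 CPM in WT 1 to WT 5. The groups overlapped, with KO 2 inside the WT range. The log2 fold change of 0.08 (SE 0.03, 95% interval 0.02 to 0.13, edgeR adjusted p = 0.0378) was the smallest of the 6 rises and lost its call in 13 of 23 alternative fits, including 7 of the 10 that left out 1 library (adjusted p up to 0.0833).

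DPPA4 stood at 839, 807, 810, 817 and 778 CPM in KO 1 to KO 5, against 736, 761, 760, 747 and 733 CPM in WT 1 to WT 5. The groups did not overlap, with KO 5 closest to the WT range. The means were 810 ± 21.9 CPM in KO and 748 ± 13.1 CPM in WT, with a log2 fold change of 0.12 (SE 0.03, 95% interval 0.06 to 0.17, edgeR adjusted p = 0.00257). DPPA2, its partner and its neighbour 9.62 kb away on chromosome 3, was far scarcer, at 5.31 ± 0.473 CPM in KO and 3.47 ± 0.433 CPM in WT, and rose by 0.61 on the log2 scale (SE 0.10, edgeR adjusted p = 4.44e-04). DPPA4 counts per DPPA2 count averaged 154 ± 16.8 in KO and 218 ± 29.9 in WT, a log2 difference of -0.50 without overlap (exact two-sided permutation p = 0.00794, the smallest possible; adjusted p = 0.0159 over 4 ratios). Without both replicate 3 libraries it was -0.49, again without overlap and at the smallest p of that design (exact permutation adjusted p = 0.0571).

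**Figure D2:**
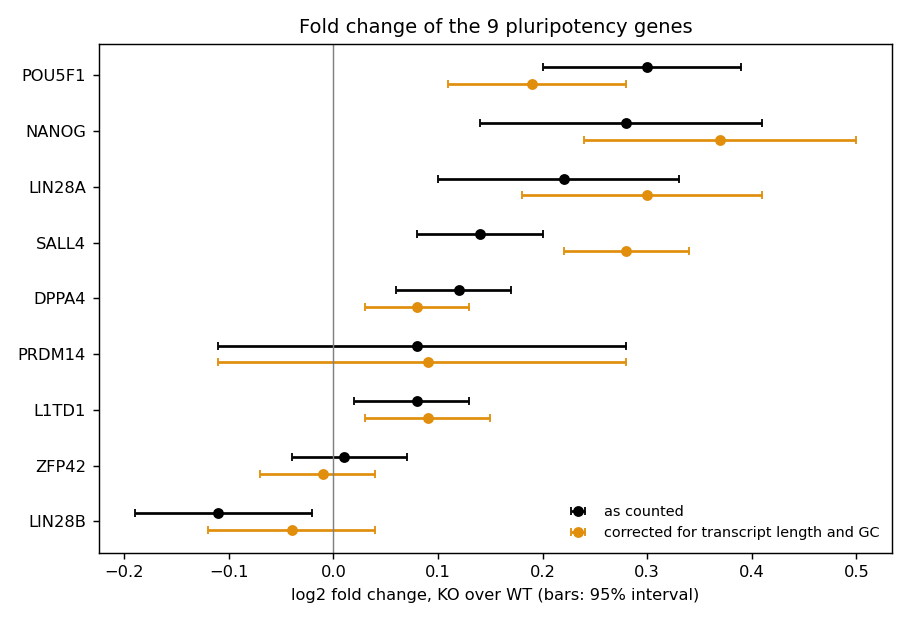
Log2 fold change (KO over WT) of the 9 genes with 95% intervals, from counts as deposited (black) and after correction for transcript length and GC content (orange). POU5F1 moves from 0.30 to 0.19, SALL4 from 0.14 to 0.28, and LIN28B to -0.04 with an interval that spans 0.

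Fold changes in these libraries moved with gene length. Protein-coding genes of at least 5 CPM on average were sorted by transcript length into 10 bins of equal size. The median log2 fold change ran from 0.22 in the shortest bin to -0.13 in the longest. POU5F1, with a transcript of 1420 bases, lies in bin 2, where the median was 0.13, while NANOG (5183 bases), SALL4 (5208) and LIN28B (5505) lie in bin 8, where it was -0.06. After each library's trend on transcript length and GC was removed, the log2 fold change of POU5F1 was 0.19 (95% interval 0.11 to 0.28, edgeR adjusted p = 0.0015). That of NANOG was then 0.37, that of LIN28A 0.30 and that of SALL4 0.28 (95% interval 0.22 to 0.34, edgeR adjusted p = 1.36e-05). DPPA4 stood at 0.08 (adjusted p = 0.0116), L1TD1 at 0.09 and LIN28B at -0.04 (95% interval -0.12 to 0.04, adjusted p = 0.357). With exonic in place of transcript length, L1TD1 lost its call (0.03, adjusted p = 0.391) and ZFP42 passed in the other direction (-0.09, adjusted p = 0.0169). LIN28B did not pass there either (-0.09, edgeR adjusted p = 0.0637). The cause of the trend was not tested.

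The 9 genes spanned a wide range of levels per transcript length. In CPM per kb of transcript, the KO means descended from POU5F1 (2263) through DPPA4 (288), L1TD1 (205), LIN28A (199), ZFP42 (46.9), SALL4 (25.7), LIN28B (21.4) and NANOG (16.8) to PRDM14 (9.9). In WT the order was the same, at 1843, 265, 194, 171, 46.5, 23.3, 23, 13.8 and 9.34 CPM per kb. L1TD1 and LIN28A overlapped in both groups, and SALL4 and LIN28B in WT. The other neighbours in the order did not overlap between libraries. NANOG is given here without the counts of its near copy NANOGP8, described below (28.8 ± 1.75 CPM in KO and 26.9 ± 2.01 CPM in WT). Its place beside LIN28B could therefore depend on how shared reads were assigned. With exonic length, DPPA4 came after L1TD1 and LIN28A, at 162 CPM per kb in KO and 150 CPM per kb in WT, and in WT alone LIN28B (21.1) came just before SALL4 (21), with overlap. On transcript length, POU5F1 ranked 16 of 14728 protein-coding genes in both groups, and PRDM14 ranked 5987 in KO and 6209 in WT.

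**Figure D3:**
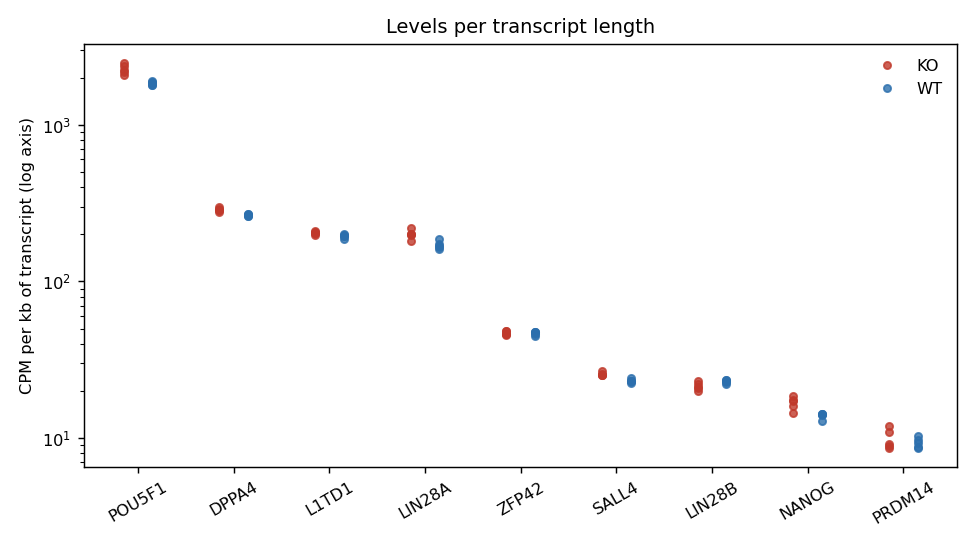
CPM per kb of transcript (log axis) of the 9 genes in each KO library (red) and WT library (blue), in descending order of the KO mean. POU5F1 stands apart at about 2263 in KO and 1843 in WT, and PRDM14 is lowest at 9.9 in KO and 9.34 in WT.

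Together the 9 genes made up 0.595 ± 0.0176% of all counts in KO and 0.538 ± 0.00958% in WT (SD, n = 5 each). POU5F1 supplied 52.7 ± 1.62% of that sum in KO and 49.7 ± 0.818% in WT. Without POU5F1 the other 8 summed to 0.282 ± 0.00665% in KO and 0.271 ± 0.00698% in WT. The spread between KO libraries differed among the 9. On log2 CPM the SD over KO libraries was 0.203 for PRDM14, 0.143 for NANOG, 0.103 for LIN28A and 0.102 for POU5F1, against a median of 0.0814 over 12211 genes of at least 5 CPM. SALL4, L1TD1, DPPA4 and ZFP42 varied less, at 0.0341 to 0.0392. Over WT libraries the SD was 0.0983 for PRDM14, 0.0838 for LIN28A, 0.066 for NANOG and 0.0353 for POU5F1, against a median of 0.0587.

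Ratios within a library need no scaling, and 2 more were tested. NANOG counts per POU5F1 count averaged 0.027 ± 0.00204 in KO and 0.0274 ± 0.0017 in WT, with a log2 difference of -0.02 (exact two-sided permutation p = 0.722). After the length and GC correction this difference was 0.17 (exact permutation adjusted p = 0.0317), so the sign depends on that step. SALL4 counts per POU5F1 count averaged 0.0418 ± 0.00284 in KO and 0.0463 ± 0.00189 in WT, a log2 difference of -0.15 (exact permutation p = 0.0317, adjusted p = 0.0423), with 1 KO library inside the WT range. The difference turned to 0.09 after the correction (exact permutation adjusted p = 0.0952) and no longer passed without WT 2 (0.0529) or without WT 5 (0.0635).

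POU5F1, NANOG and SALL4 have copies elsewhere in the genome, from 75.5% identical to the mRNA (SALL4P7, the copy of SALL4) to 99.5%, and how the authors' counting assigned shared reads is not given. NANOGP8 on chromosome 15, 99.5% identical to NANOG over 918 bases, held 10302 counts, equal to 34.9% of the NANOG counts. NANOGP8 ran from 26.9 to 30.6 CPM in KO and from 24.8 to 29.6 CPM in WT, with overlap, and its log2 fold change of 0.10 did not pass (edgeR adjusted p = 0.185). NANOGP1, an unprocessed copy 91.7 kb from NANOG and 92.2% identical, held 2809 counts and did not pass either (log2 fold change -0.10, adjusted p = 0.339). When the counts of each gene were summed with those of its copies, POU5F1 stood at 0.31 (edgeR adjusted p = 6.84e-05), NANOG at 0.21 (0.00356) and SALL4 at 0.14 (0.00144), and the members still counted 6 higher and 1 lower.

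The copies of POU5F1 differed widely between libraries of the same group. POU5F1P3, 98% identical over 1080 bases, stood at 172, 149, 48.3, 153 and 165 CPM in KO 1 to KO 5, against 126, 50.7, 29.6, 150 and 122 CPM in WT 1 to WT 5. POU5F1B stood at 5.61, 5.84, 2.23, 5.5 and 6.1 CPM in KO 1 to KO 5, against 3.54, 2.19, 1.38, 4.92 and 3.1 CPM in WT 1 to WT 5. Both were low in KO 3, WT 2 and WT 3, the libraries that stood lowest on the second principal component, and POU5F1P4 was low in the same 3. POU5F1 itself was highest in KO 3. None of the 3 copies passed the test between groups, with log2 fold changes of 0.53 for POU5F1P3, 0.75 for POU5F1B and 0.56 for POU5F1P4 (edgeR adjusted p = 0.336, 0.0823 and 0.123 in that order). POU5F1P3 counts equalled 3.84% of POU5F1 counts. The low values in KO 3, WT 2 and WT 3 were not particular to copies of POU5F1. NANOGP9 stood at 0.139, 0.145 and 0.0222 CPM in KO 3, WT 2 and WT 3, against 0.306 to 0.605 CPM elsewhere. ERP29P1, a processed pseudogene named after its values were seen, stood there at 0.892, 1.18 and 0.601 CPM, against 2.35 to 3.71 CPM elsewhere. AL162739.1, a processed pseudogene inside L1TD1 and named likewise, did not drop there, at 0.363, 0.455 and 0.601 CPM.

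**Figure D4:**
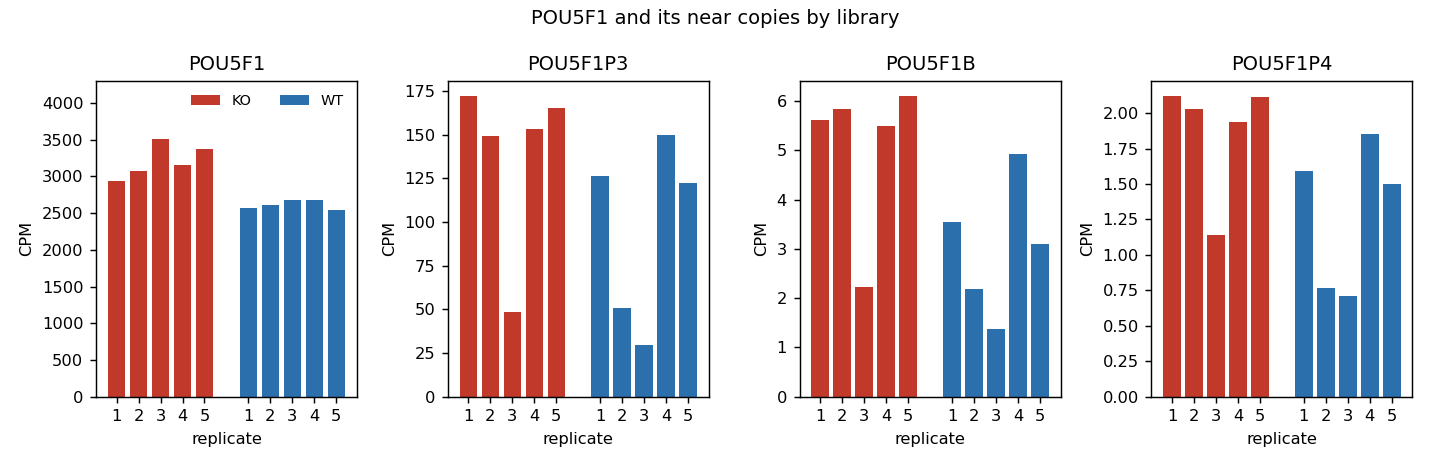
CPM of POU5F1 and its copies POU5F1P3, POU5F1B and POU5F1P4 in KO replicates 1 to 5 (red) and WT replicates 1 to 5 (blue). The 3 copies are low in KO 3, WT 2 and WT 3, where POU5F1 is not.

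Among 36 other genes known for high expression in primed pluripotent cells, 11 rose and 8 fell in KO, with a median log2 fold change of 0.01 beside 0.002 over all tested genes. EPCAM, a surface adhesion protein, averaged 278 ± 6.92 CPM in KO and 237 ± 5.23 CPM in WT (log2 fold change 0.23, edgeR adjusted p = 2.68e-05), and PIM2, a kinase, rose by 0.34 (adjusted p = 4.81e-05). TERT, the catalytic subunit of telomerase, fell by 0.31 on the log2 scale (adjusted p = 1.23e-04) and PHC1, a Polycomb protein, fell by 0.22 (adjusted p = 2.11e-04). After the transcript length and GC correction EPCAM stood at 0.14 and PHC1 at -0.11, and both still passed. THY1, a surface marker, averaged 730 ± 58.9 CPM in KO and 729 ± 30.5 CPM in WT. The list therefore moved both ways, at shares of 11 and 8 in 36 beside 21.9% and 24.1% of all tested genes. Among tested genes of at least 20 CPM, a level that most of the list reached, the shares were 34.0% upwards and 25.5% downwards.

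Genes that process let-7 or are known let-7 targets, 22 in all, counted 3 higher and 10 lower, beside 21.9% and 24.1% of all tested genes, with a median log2 fold change of -0.08. Among tested genes of at least 20 CPM, the range that holds all 22, 34.0% passed upwards and 25.5% downwards. IGF2BP3, an RNA-binding let-7 target, averaged 186 ± 12.7 CPM in KO and 257 ± 9.26 CPM in WT (log2 fold change -0.47, SE 0.04, edgeR adjusted p = 8.93e-06), without overlap. CCND1 (cyclin D1) fell by 0.28, TUT4, the terminal uridylyl transferase that LIN28A recruits to let-7 precursors, fell by 0.27, and DICER1, which cuts those precursors, fell by 0.25. DROSHA averaged 112 CPM in both groups and MYC 68.9 ± 11.9 CPM in KO and 68 ± 1.3 CPM in WT. Of other targets, named after their values were seen, HMGA2 fell by 0.27, MYCN fell by 0.36 and IGF2BP1 fell by 0.20, while HMGA1 rose by 0.19. After the transcript length and GC correction the counts were 8 higher and 8 lower, while all tested genes counted 4441 higher and 4145 lower of 19163. With exonic length they were 6 and 9, beside 4571 and 4276 of all tested genes. The shares among genes of at least 20 CPM were not worked out under either correction. The split of the list thus depended on that step. Under the transcript length correction IGF2BP3 stood at -0.44, CCND1 at -0.18, DICER1 at -0.10 and IGF2BP1 at -0.01. With exonic length TUT4 stood at -0.13, and HMGA1 (0.08, adjusted p = 0.0559) and HMGA2 (-0.10, adjusted p = 0.0636) did not pass. Of 7 let-7 host transcripts listed, 5 were matched and 2 could be tested. AL158152.1 on chromosome 9, which the gene name table lists as MIRLET7A1HG, fell by 0.50 on the log2 scale (6.57 ± 0.465 CPM in KO and 9.26 ± 0.516 CPM in WT, adjusted p = 8.95e-05). Its counted interval, 94176458 to 94177892, holds no let-7 hairpin: those of let-7a-1 and let-7f-1 end at 94176036 and 94176433, and that of let-7d starts at 94178834. HUWE1, the other host tested, fell by 0.15 (edgeR adjusted p = 0.0336) but stood at 0.11 after the transcript length and GC correction.

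**Figure D5:**
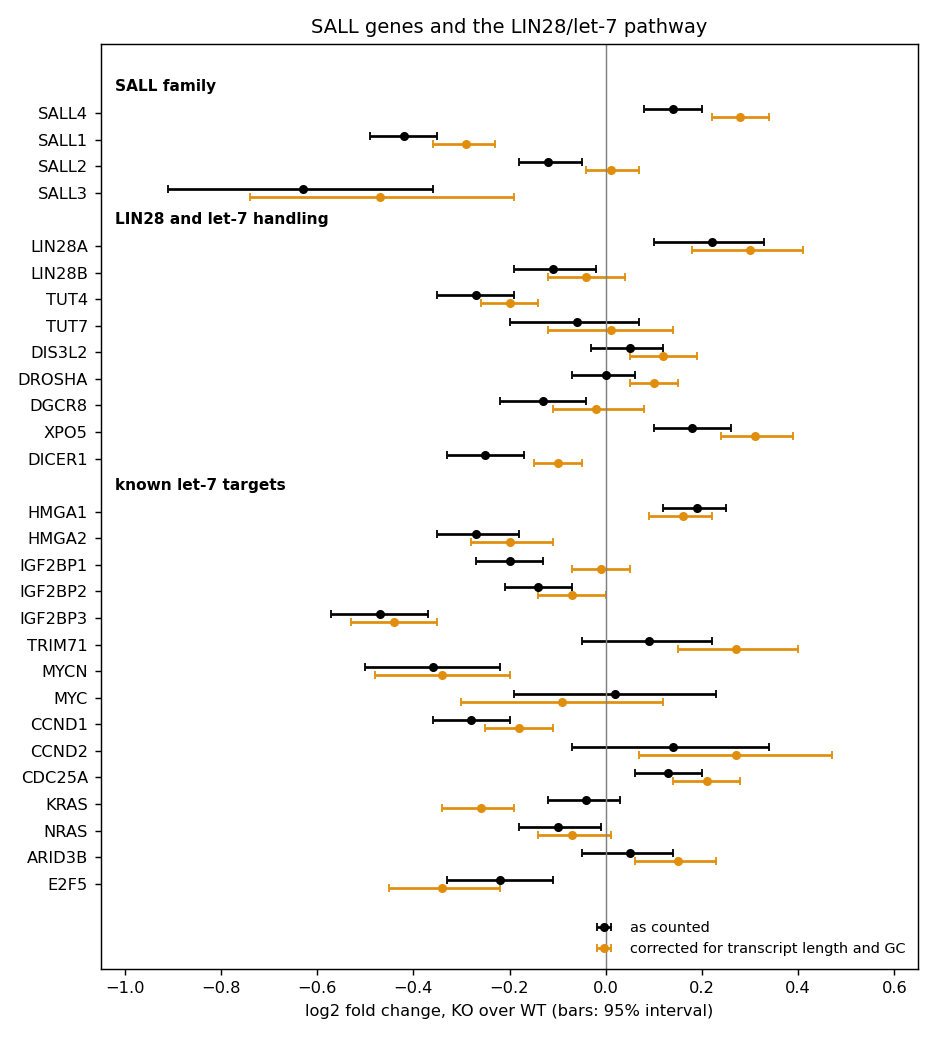
Log2 fold change (KO over WT, with 95% intervals) of the SALL genes, of LIN28 and let-7 handling genes and of known let-7 targets, as counted (black) and after correction for transcript length and GC (orange). SALL4 lies above 0 and SALL1 and SALL3 below it in both, while SALL2 (-0.12 as counted, 0.01 corrected) and IGF2BP1 (-0.20 and -0.01) reach 0 after correction.

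Relatives of the 9 genes moved both ways. Of 18 tested relatives, 2 rose and 6 fell, beside 21.9% and 24.1% of all tested genes, with a median of -0.05. SALL1, a paralog of SALL4 active in kidney and limb development, averaged 65.8 ± 2.7 CPM in KO and 88.2 ± 2.49 CPM in WT (log2 fold change -0.42, edgeR adjusted p = 1.98e-06). SALL3, named after its values were seen, fell by 0.63 on the log2 scale, and SALL2, named likewise, fell by 0.12 but stood at 0.01 after the transcript length correction. SALL4 was thus higher in KO where SALL1 and SALL3 were lower. Under that correction the list counted 4 higher and 3 lower, beside 4441 and 4145 of all 19163 tested genes. POU3F1, a POU factor of neural progenitors, averaged 46 ± 2.46 CPM in KO and 83.2 ± 1.59 CPM in WT (log2 fold change -0.86, adjusted p = 1.42e-08). PRDM1, a PR-domain repressor known from germ cells and B cells and named after its values were seen, was scarce, at 0.823 ± 0.389 CPM in KO and 0.28 ± 0.0283 CPM in WT (log2 fold change 1.56, adjusted p = 0.00214).

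SALL4 recruits the NuRD complex, which joins histone deacetylases with a chromatin remodeller. Of its 14 genes, 3 rose and 2 fell, with a median of 0.05. Neither count is above the shares of all tested genes, 21.9% upwards and 24.1% downwards. Among tested genes of at least 20 CPM, the range that holds all 14, the shares were 34.0% and 25.5%. CHD3, an alternative remodeller subunit, fell by 0.45 on the log2 scale (38.5 ± 2.38 CPM in KO and 52.7 ± 3.17 CPM in WT, edgeR adjusted p = 2.89e-05; -0.26 after the transcript length and GC correction) and MTA2 fell by 0.18, while HDAC1 rose by 0.12 and MTA3 by 0.19 (0.32 with exonic length). PRDM14 works with CBFA2T2 and with Polycomb complex PRC2. Of 9 such genes, 3 rose and 1 fell, beside the same shares of all genes, with a median of 0.10. EZH2, the methyltransferase of PRC2, fell by 0.28 (46.4 ± 3.16 CPM in KO and 56.5 ± 1.9 CPM in WT, adjusted p = 3.71e-04), AEBP2 rose by 0.40 and MTF2 by 0.11 (without KO 3, WT 2 and WT 3 also 0.11, but adjusted p = 0.0542), and SUZ12 averaged 49.8 ± 1.91 CPM in KO and 50 ± 1.28 CPM in WT. After the transcript length correction the counts were 8 higher and 2 lower for NuRD and 5 higher and 1 lower for the PRC2 list, beside 4441 and 4145 of all 19163 genes. The shares among genes of at least 20 CPM were not worked out under that correction, so these counts cannot be set beside genes of like level.

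The genes next to the 9 on their chromosomes counted 9 higher and 7 lower of 36, near the 21.9% and 24.1% of all tested genes, with a median log2 fold change of 0.05. The largest changes lay far away. NECTIN3-AS1, 1556 kb from DPPA4, averaged 71 ± 28.7 CPM in KO and 1.03 ± 0.438 CPM in WT (log2 fold change 6.09, edgeR adjusted p = 2.56e-07). The lincRNAs AC108865.2 and AC108865.1, 1103 kb from ZFP42, had log2 fold changes of 4.62 and 3.39 at under 1 CPM. Their WT means, 0.0218 and 0.0622 CPM, lay within what a count of 0 allows, so the sizes of these fold changes are uncertain. SULF1, 391 kb from PRDM14, fell by 0.88 on the log2 scale. TRIML2, named after its values were seen and 86.2 kb from ZFP42, averaged 48.2 ± 1.47 CPM in KO and 70.8 ± 2.48 CPM in WT (log2 fold change -0.55, adjusted p = 2.17e-07), beside a ZFP42 at 0.01.

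The genes whose pattern over the 10 libraries was most like that of POU5F1, by the root mean square difference of centred log2 CPM among 12210 genes of at least 5 CPM, were AP1M1 (0.0232), DUS3L (0.0237) and SNRPB (0.0244), against a median difference of 0.181. For SALL4 they were RUVBL1 (0.0184), NDRG3 (0.0193) and FKBP1A (0.0224), against a median of 0.128. For DPPA4 they were DSTN (0.0147), HIKESHI (0.0193) and CHEK1 (0.0217), against a median of 0.122. For NANOG they were less close, at 0.0393 for HLA-E, 0.0395 for PFKFB2 and 0.0396 for SAT1, against a median of 0.186. The measure includes the difference between KO and WT, so genes of like fold change come out near each other. No other of the 9 genes was among these nearest genes.

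In the authors' deposited table all 9 genes carry the call NO. The 1217 genes called YES in the authors' deposited table all have an absolute log2 fold change of at least 0.585 and an adjusted p of at most 0.00973. The authors' deposited table gives POU5F1 a log2 fold change of 0.30 (adjusted p = 2.45e-09), NANOG 0.28, LIN28A 0.23, SALL4 0.15, DPPA4 0.13, L1TD1 0.09 (0.0115), PRDM14 0.09 and ZFP42 0.03. For LIN28B the authors' deposited table gives -0.09 with an adjusted p of 0.0644.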

How the data were processed

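The 5 KO and 5 WT polyA RNA libraries were grouped by their titles. The authors deposited raw counts per gene, with no normalization. Build hg38, DESeq2 and R 3.6.3 are named in the submitters' processing notes. Not given in the sources used here are how reads were aligned, counted and assigned to strands and to near copies of a gene. A second table deposited by the authors lists, for each gene, the mean normalised signal, the log2 fold change and its log2 standard error, their quotient as a score, and the p-value before and after adjustment. It supplied symbols and side-by-side values.

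KO was tested against WT by the quasi-likelihood test of edgeR 4.0.16 (R 4.3.3) after filterByExpr and TMM scaling. The p-values were adjusted by Benjamini-Hochberg over the 19163 genes tested, and those under 0.05 were called. CPM use TMM-scaled library sizes and log2 CPM a prior count of 2. The 4 ratios were compared by exact permutation of log2 ratios of counts (numpy 2.4.6 and pandas 2.3.3 in Python 3.11.15). Alternatives were DESeq2 size factors and the DESeq2 1.42.0 Wald test, limma voom (limma 3.58.1), keeping all genes, keeping those of 1 CPM in at least 5 libraries, a replicate block, a length and GC correction with transcript or exonic length (splines with 5 degrees of freedom on genes of at least 1 CPM, as an offset), glmTreat against 0.25, and fits without single or several libraries. Summing members with their copies, and running the other lists through these alternatives, were added after seeing the data. The fits were also run on simulated counts in which few genes changed and no length or GC trend was built in. That run therefore does not check them under the conditions of these data.

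Positions and lengths came from GENCODE 29, promoters and miRNAs from RefSeq tables, and copies were aligned with blastn 2.17.0. Library totals ran from 28615751 to 47319933 counts, and 3 counts, the limit that a count of 0 allows, equal 0.0634 to 0.105 CPM, which covers counting error only. Pairs of libraries in a group differed beyond the sampling noise of reads (chi-square per degree of freedom 3.59 to 26.2), so none merely repeats the reads of another. That value cannot tell separate cultures from separate preparations of 1 RNA. Each library was taken as 1 replicate in the tests. The members, lists and tests were chosen with earlier results of these data known. Beside KCNH2, SOX2 and the 9 members, the named genes are up to 4 with the smallest and 2 with the largest p of each list, the copies with at least 10 counts, the 4 neighbours with the largest change among those that passed, and the 3 genes most like each of the 4 members with the smallest p. Genes named otherwise are said to be chosen after their values were seen.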

Additional observations from a re-analysis of the deposited data

Results flagged for a closer look

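In 5 of 48 sets of 5 libraries checked, 1 library lay far from the other 4, where chance gives about 2.4 (1 in 20). NANOG in WT 4 stood at 66.1 CPM, against 72.5 to 73.6 CPM in the other WT libraries. Without that library the NANOG call held, as it did in all 10 fits that left out 1 library (log2 fold change 0.24 to 0.34). ZFP42 in WT 1 stood at 119 CPM, against 123 to 125 CPM in the others. The other 3 were copies of POU5F1 in KO 3. POU5F1B stood at 2.23 CPM there, against 5.5 to 6.1 CPM in the other KO libraries, POU5F1P3 at 48.3 CPM against 149 to 172 CPM, and POU5F1P4 at 1.14 CPM against 1.94 to 2.12 CPM. KO 3 was also lowest on the second principal component and, among the KO libraries, for the processed pseudogenes NANOGP9 and ERP29P1. No cause was tested.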

How the results depend on the processing

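POU5F1, NANOG, LIN28A, SALL4 and DPPA4 kept direction and call in 22 of 23 alternative fits each, all but the test against a log2 fold change of 0.25. In that test the counts were 0 members higher and 0 lower, 2 genes of the primed list higher and 0 lower, and 978 of all genes higher and 1610 lower, since it asks for more than a nonzero change. The count of members lower was 0 with DESeq2 size factors, without a filter, with the replicate block, with the transcript length and GC correction, with that correction and the replicate block together, without both replicate 3 libraries, and without KO 3, WT 2 and WT 3. With exonic length the 1 member lower was ZFP42, while LIN28B did not pass (-0.09, edgeR adjusted p = 0.0637). Leaving out 1 library gave 5 to 6 members higher and 0 to 1 lower, 10 to 12 and 6 to 9 genes of the primed list, and 3846 to 4537 and 4150 to 4517 of all genes. With the replicate block, 5 members were higher and 0 lower, against 6 and 1 without it, and 4258 and 4300 of all genes. The labels do not say whether the numbers pair the libraries. Same-numbered KO and WT libraries correlated at 0.173, -0.157, 0.698, 0.198 and 0.176 in deviation from their group means. Only replicate 3 matched best with its own number. These correlations cannot settle a pairing, since deviations from group means also hold other differences between libraries.

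Signs turned after the length and GC corrections for ZFP42 (-0.09, exonic length), DROSHA (0.10 with transcript length and with the replicate block added, 0.08 with exonic length), HUWE1, a let-7 host (0.11, 0.05 and 0.11 against -0.15 before), NES (0.13 and 0.13) and HIKESHI (-0.09 and -0.09). The NANOG to POU5F1 ratio turned to 0.17 after the correction and ran from -0.07 to 0.00 when 1 library was left out, with 0.00 without KO 1. The SALL4 to POU5F1 ratio turned to 0.09 after the correction, and ran from -0.18 to -0.11 when 1 library was left out. Without both replicate 3 libraries the ratios were -0.32 for LIN28B to LIN28A and -0.49 for DPPA4 to DPPA2, both at the smallest exact p of 4 against 4 libraries (0.0286) and above the threshold through the adjustment alone. SALL4 to POU5F1 was then -0.12 and did not pass. Under the replicate block (exact sign-flip test, smallest p 0.0625) they were -0.33 and -0.50 (adjusted p = 0.125 each) and -0.15 (adjusted p = 0.167). SALL4 to POU5F1 did not pass without WT 2 (-0.15) or without WT 5 (-0.13). The cause of these changes was not tested.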

Other observations

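Other genes of the primed list, named after their values were seen, gave these values. ZSCAN10, a zinc finger factor of embryonic stem cells, averaged 390 ± 17.3 CPM in KO and 344 ± 8.72 CPM in WT (SD, n = 5 each), with a log2 fold change of 0.18 (edgeR adjusted p = 7.87e-04) and 0.19 after the transcript length and GC correction. UTF1, a chromatin-bound factor of undifferentiated cells, averaged 10.2 ± 0.321 CPM in KO and 8.46 ± 0.408 CPM in WT (0.27, adjusted p = 0.00117), and did not pass after the correction (0.13, adjusted p = 0.108). GAL, the galanin precursor, averaged 29.9 ± 2.2 CPM in KO and 24.9 ± 1.39 CPM in WT (0.26, adjusted p = 0.00228), and likewise did not pass after it (0.07, adjusted p = 0.237). Among those lower in KO, ZIC2, a zinc finger factor of neural development, averaged 265 ± 10.8 CPM in KO and 301 ± 6.64 CPM in WT (-0.19, adjusted p = 3.99e-04). POLR3G, a subunit of RNA polymerase III enriched in pluripotent cells, averaged 179 ± 11 CPM in KO and 201 ± 3.98 CPM in WT (-0.16, adjusted p = 0.00448), and the groups overlapped. HESX1, a homeobox repressor, averaged 2.21 ± 0.279 CPM in KO and 2.9 ± 0.513 CPM in WT (-0.40, adjusted p = 0.0326), also with overlap, and did not pass without KO 3, WT 2 and WT 3 (-0.36, adjusted p = 0.131).

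SALL4P7, a processed copy of SALL4 with 75.5% identity, had too few counts to test. It held 8 counts over the KO libraries and 65 over the WT libraries, with 0 in KO 1 and KO 5 and 7 or more in every WT library.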
